A study of Neurospora crassa with 24 samples.

Results

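The genes described here are those whose expression peaked at 0.05% glucose, the lowest glucose concentration used, in the WT strain of *Neurospora crassa*. They were chosen by the WT values alone. A gene was taken when its WT mean of log2(FPKM + 1) at 0.05% glucose lay at least 1 above the WT mean without carbon source, at 0.5% glucose and at 2% glucose, and when its WT mean at 0.05% glucose was above 20 FPKM. FPKM count the fragments of a gene in relation to transcript length and library size, so the levels of different genes can be set side by side. The rule found 110 members among 9730 loci with a value. Since the WT values chose the members, WT values and differences from the WT are given below as a description with no test, and tests were run only within and between the deletion strains, which the rule did not use.

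The strains were Δ*rco-3*, Δ*col-26* and the WT reference strain OR74A. Each deletion genotype is represented by 1 strain of the Fungal Genetics Stock Center, and both of these are of mating type a. The paper's strain list gives no mating type for the WT, so whether differences from the WT include one of mating type cannot be told. Conidia of every strain were grown for 16 h at 28 °C in constant light in Vogel's minimal medium with 2% sucrose, and the washed mycelia were then kept for 1 h in the same medium with no carbon source or with 0.05, 0.5 or 2% glucose. Duplicate cultures gave 2 libraries for every strain and medium, which makes 12 groups and 24 libraries, from total RNA of mycelia. *rco-3* was listed at 0 in every Δ*rco-3* library. *col-26* had 4.91 to 10.61 FPKM in the Δ*col-26* libraries, so a deletion of the whole transcript does not show in these values and that strain is named as its label gives it. The FPKM of a library summed to between 565181 and 616209, and low values put the depth of the libraries at 96.6% to 102.9% of the median library, from 96 genes chosen for steps that the libraries share. The 2 libraries of a group agreed closely, so the p-values below measure a small spread that may be partly technical.

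Glucose reaches the cells of *N. crassa* through transporters of low and of high affinity, and the set in use follows the supply. RCO-3 is a membrane protein related to sugar transporters that acts as a glucose sensor, and COL-26 is a transcription factor of the zinc binuclear cluster family that is needed for normal growth on glucose and starch. In carbon catabolite repression, ample glucose shuts off genes for the use of other carbon sources, and starvation releases them. Genes that are highest when glucose is scarce but present follow neither repression alone nor plain induction by glucose alone over all media. Part of their profile can still follow one of these patterns.

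In the WT, the 110 members had a median of 98.2 FPKM at 0.05% glucose, and the range ran from 20.2 to 8711 FPKM. At this concentration 55 members were above 100 FPKM and 16 above 1000 FPKM. Both libraries at 0.05% glucose were above the other 6 WT libraries for all 110 members, which the rule nearly forces. The margin, which is the mean log2(FPKM + 1) at 0.05% glucose minus the highest of the other WT means, had a median of 1.41, was at least 2 for 23 members and was at least 3 for 7 members. Together the members took 11.2% of all FPKM in the WT at 0.05% glucose, against 1.66% without carbon source, 3.24% at 0.5% glucose and 2.38% at 2% glucose (means of 2 libraries). In mycelia sampled as a whole, more RNA per cell and more cells that express a gene cannot be told apart.

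The membership has a limit that lies in the unit. FPKM divide by the mapped fragments of the library, and the median of all 7981 genes with a mean of at least 1 FPKM in some group was lower in the WT at 0.05% glucose than without carbon source by 0.49 on the log2(FPKM + 1) scale, and lower than at 0.5% and 2% glucose by 0.18 and 0.20. When the libraries were rescaled so that most genes kept their level (median-ratio scaling), 202 genes met the rule, among them all 110 members. The members just inside the margin were *ncw-5* at 1.01 and *pkac-2* at 1.01, and just outside lay NCU11109 and NCU02499, both at 0.99. By WT mean at 0.05% glucose, NCU01569 at 20.2 FPKM and NCU07111 at 22.9 FPKM were the lowest members, and NCU07949 at 19.4 FPKM and NCU01180 at 19.25 FPKM passed the margin but not the level. In all, 26 genes passed the margin alone.

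The members differed in which medium came after 0.05% glucose in the WT. The second-highest mean was at 0.5% glucose for 58 members, without carbon source for 41 and at 2% glucose for 11. The lowest mean was without carbon source for 53 members, at 2% glucose for 49 and at 0.5% glucose for 8. The members are thus no single profile, since some were near their lowest in starved mycelia and others in mycelia with ample glucose.

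**Figure D1:**
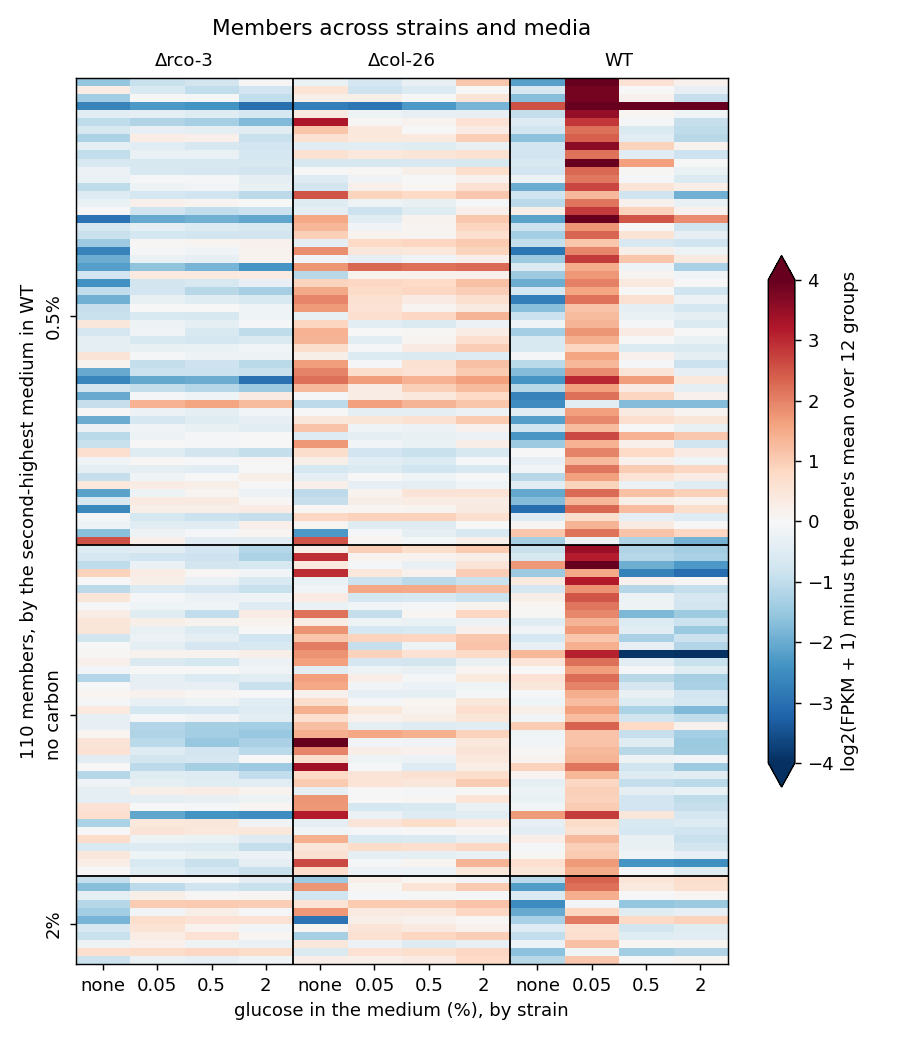
Mean log2(FPKM + 1) of the 110 members (rows) in the 12 groups (columns: 4 media in Δrco-3, Δcol-26 and WT), minus the mean of the gene over the 12 groups, so that red is above and blue below the gene's own mean; values past 4 on either side have the end colour. Rows are grouped by the second-highest WT medium (58, 41 and 11 members). The WT 0.05% column is red almost throughout, which the rule favours but does not require, since the rule compares WT media only. The deletion strains show no such column at 0.05% glucose, while many members are red in Δcol-26 without carbon source.

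The largest margins belonged to members without a gene symbol in the reference annotation. NCU01735 (chromosome II, 2598794 to 2601814, assembly NC12) had 81.26 and 83.28 FPKM in the WT at 0.05% glucose, against 2.94 and 3.33 without carbon source, 2.35 and 2.21 at 0.5% glucose and 1.89 and 1.92 at 2% glucose, a margin of 4.33. NCU07318 (chromosome IV, 4382529 to 4384697) had 2811 and 2868 FPKM at 0.05% glucose, against 22.8 and 23.6 without carbon source, 163 and 163 at 0.5% and 120.2 and 123 at 2%. Both were high in a single medium, and the margins of NCU09676, NCU04591 and NCU02798 were 3.84, 3.80 and 3.66. NCU01633 (chromosome II, 2887726 to 2890393) had 4976 and 4936 FPKM at 0.05% glucose, against 87.4 and 86.2 without carbon source, 420.4 and 434 at 0.5% and 309.6 and 324 at 2%. NCU00575, described as a glucokinase in the study's annotation and as a hexokinase in its text, both names for enzymes that phosphorylate glucose after uptake, had 1395 and 1415 FPKM at 0.05% glucose, against 61.3 and 62.8 without carbon source, 129 and 126 at 0.5% and 112 and 107 at 2%. NCU05627 had the steepest drop with more glucose of the members without a symbol among the 10 largest margins: its WT mean at 0.05% glucose was 104 times that at 0.5% and 134 times that at 2% glucose, but 7.81 times that without carbon source. By level at 0.05% glucose, the highest members were *cmt* at 8711 FPKM, NCU16673 at 6038, NCU01633 at 4956, NCU06402 at 4167 and NCU10051 at 3810 FPKM.

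Of the 110 members, 16 have a symbol, and several of these belong to the use of sugars. *inv*, which encodes invertase, the enzyme that splits sucrose outside the cell, had 3154 and 3174 FPKM in the WT at 0.05% glucose and 949 and 936 without carbon source, but 23.52 and 24.96 at 0.5% and 10.4 and 9.84 at 2% glucose. *fba*, the gene of the glycolytic enzyme fructose-bisphosphate aldolase, varied less, with 3798.56 and 3799.82 FPKM at 0.05% glucose against 906 and 905 without carbon source, 1569 and 1580.2 at 0.5% and 1320 and 1327 at 2%. *emp-3*, named for the Embden-Meyerhof pathway, had 474 and 478 FPKM at 0.05% glucose, 33.0 times its mean without carbon source and 2.34 times its mean at 0.5%. *ccg-9*, a clock-controlled gene for trehalose synthase, had 31.0 and 33.3 FPKM at 0.05% glucose, 3.21 and 3.36 without carbon source and under 1 FPKM at 0.5% and 2%. The invertase gene thus had its lowest values with ample glucose, while both glycolytic genes were lowest without carbon source.

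The other members with a symbol have varied functions. *aod-1*, the alternative oxidase that passes electrons to oxygen without the cytochrome chain, had 471 and 494 FPKM in the WT at 0.05% glucose, 22.4 times its mean without carbon source and 2.99 times its mean at 2% glucose. *cmt*, the copper metallothionein gene, had 8668 and 8753 FPKM at 0.05% glucose, 6.83 times its mean without carbon source. *cat-3*, which encodes catalase-3, an enzyme that breaks down hydrogen peroxide, had 37.0 and 34.2 FPKM at 0.05% glucose against 8.03 and 7.48 without carbon source. Lower ratios were those of *ena-1*, a gene of the sodium-exporting ATPase family, at 4.21 over no carbon source, of *tob55*, part of the machinery that inserts barrel proteins into the mitochondrial outer membrane, at 2.22, and of *rpn-4*, named for the proteasome regulatory particle, at 2.04. Among the genes of the cell wall, the ratio was 11.3 for the chitinase gene *chit-1* and 2.27 for *ncw-5*, which encodes a non-anchored cell wall protein. Among the protein kinase genes it was 2.49 for *stk-39*, 2.44 for *fi* and 2.02 for *pkac-2*, a catalytic subunit of protein kinase A. *bdp-1* had a ratio of 10.0.

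**Figure D2:**
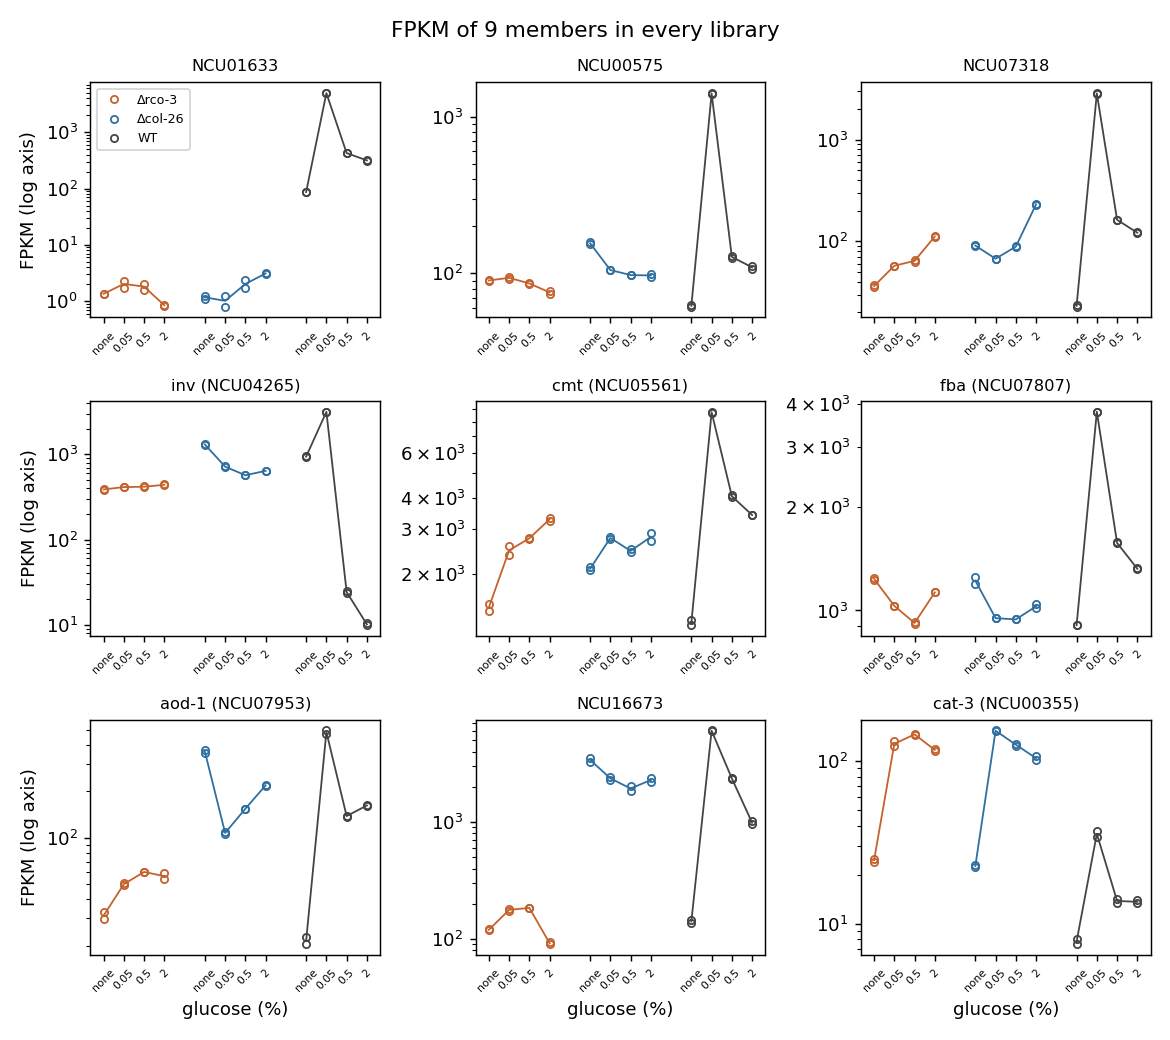
FPKM (log axis) of 9 members in all 24 libraries, as open circles by glucose in the medium (none, 0.05, 0.5, 2%) within Δrco-3, Δcol-26 and WT, with lines through the group means. NCU01633 stays between 0.80 and 3.19 FPKM in every library of the deletion strains; cat-3 is the panel in which the deletion strains lie above the WT at 0.05% glucose.

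The peak at 0.05% glucose was missing in both deletion strains. In Δ*rco-3*, the mean at 0.05% glucose minus the highest of the other means had a median of -0.15 over the members and a largest value of 0.46. In Δ*col-26*, the same margin had a median of -0.66 and a largest value of 0.29. No gene of the whole table, member or not, met the rule inside either strain, where 0 of 7981 genes had a margin of at least 1 and a mean above 20 FPKM, against the 110 in the WT. The highest medium of the members in Δ*rco-3* was no carbon source for 40, 0.05% glucose for 35, 0.5% for 15 and 2% for 20, while the shares of all genes tested were 58.33%, 11.03%, 15.36% and 15.29%. In Δ*col-26* it was no carbon source for 64 members, 0.05% glucose for 10, 0.5% for 3 and 2% for 33, while the shares of all genes tested were 52.36%, 12.82%, 18.29% and 16.53%. The 64 members highest without carbon source in Δ*col-26* are 58.2% of the 110, near the share of all genes, and the 40 in Δ*rco-3* are 36.4%. Over the 3 media with glucose, the members' means spanned a median of 0.31 log2 units in Δ*rco-3*, with 0.37 in Δ*col-26*, against 2.17 in the WT, and the corresponding medians over all genes tested were 0.22, 0.19 and 0.49.

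**Figure D3:**
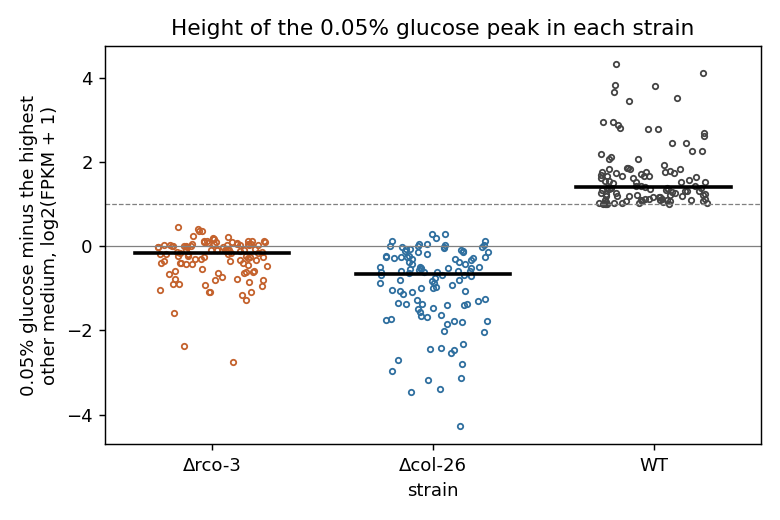
Margin of each of the 110 members (points) in Δrco-3, Δcol-26 and WT: mean log2(FPKM + 1) at 0.05% glucose minus the highest of the other 3 media, with black bars at the medians and the threshold of 1 dashed. WT points lie at or above 1 by the choice of members; the medians in Δrco-3 and Δcol-26 are -0.15 and -0.66, and no point of either strain reaches 0.5.

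At 0.05% glucose, both Δ*rco-3* libraries were below both WT libraries for 105 members and above both for 4. The median difference from the WT was -2.08 on the log2(FPKM + 1) scale over the members and 0.50 over all genes tested. Both Δ*col-26* libraries were below both WT libraries for 103 members and above for 7, with a median difference of -1.75 over the members and 0.27 over all genes tested. The share of all genes whose libraries separated in these ways was not determined. NCU01633 had 2.31 and 1.75 FPKM in the Δ*rco-3* strain and 0.80 and 1.23 FPKM in Δ*col-26* at 0.05% glucose, against 4976 and 4936 FPKM in the WT. It stayed between 0.80 and 3.19 FPKM in all 16 libraries of the deletion strains, at any glucose concentration. Besides it, NCU05563 and NCU07316 were below 5 FPKM in all 16 libraries, and NCU07316 was listed at 0 in each of them and in the WT without carbon source, against 26.5 and 24.8 FPKM at 0.05% glucose. These last loci were picked after their values were seen.

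The genes of sugar use and *aod-1* stood below the WT at 0.05% glucose by unequal amounts. The sugar kinase gene NCU00575 had 95.4 and 92.0 FPKM in the Δ*rco-3* strain and 105.0 and 105.1 FPKM in Δ*col-26* at this concentration, and its WT mean was 15.0 and 13.4 times as high. *inv* had 412 and 416 FPKM in the Δ*rco-3* strain and 705 and 732 FPKM in Δ*col-26*, and its WT mean was 7.65 and 4.40 times as high. In both deletion strains *inv* was also far above the WT with ample glucose, at 447 and 433 FPKM in the Δ*rco-3* strain and 640.1 and 643 FPKM in Δ*col-26* at 2% glucose, against 10.4 and 9.84 FPKM in the WT. *fba* had 1034 and 1029 FPKM in the Δ*rco-3* strain and 948 and 951 FPKM in Δ*col-26* at 0.05% glucose, against 3798.56 and 3799.82 FPKM in the WT, and *emp-3* had 66.8 and 66.2 FPKM and 57.1 and 60.9 FPKM, against 474 and 478 FPKM. *aod-1* had 49.3 and 50.8 FPKM in the Δ*rco-3* strain and 105.3 and 109 FPKM in Δ*col-26*, against 471 and 494 FPKM in the WT. No library of a deletion strain overlapped the WT for these genes at 0.05% glucose.

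A few members went the other way. *cat-3* had 123 and 131 FPKM in the Δ*rco-3* strain and 152 and 154 FPKM in Δ*col-26* at 0.05% glucose, against 37.0 and 34.2 FPKM in the WT. NCU05557 had 475 and 452 FPKM in the Δ*rco-3* strain and 497 and 447 FPKM in Δ*col-26*, against 207 and 212 FPKM in the WT. NCU06001 and *ncw-5* were the remaining members above the WT in both deletion strains, by 0.90 and 0.41 log2 units in Δ*rco-3*, and by 0.74 and 0.30 in Δ*col-26*. In Δ*col-26* alone, NCU06815, *stk-39* and *fi* were above the WT at 0.05% glucose, by 0.80, 0.40 and 0.21 log2 units.

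In the other media the deletion strains differed from the WT in another way. Without carbon source, both Δ*col-26* libraries were above both WT libraries for 93 members, with a median difference of 1.18 over the members and -0.15 over all genes tested. Δ*rco-3* libraries were above for 66 members, with a median difference of 0.21, close to the 0.23 of all genes tested. For 25 members the Δ*col-26* libraries without carbon source were above the WT libraries at 0.05% glucose, the medium of the WT peak. At 2% glucose, Δ*col-26* was above the WT for 86 members (median 0.93, all genes 0.05) and Δ*rco-3* for 57 (median 0.11, all genes 0.21). At 0.5% glucose the members were divided, with 58 above and 47 below the WT in Δ*col-26* and 40 above and 63 below in Δ*rco-3*. For none of these counts of members was the matching share of all genes tested determined. The members took 5.92% of all FPKM in Δ*col-26* without carbon source and 2.84% to 3.61% in its libraries with glucose, and 1.54% to 2.24% in the Δ*rco-3* libraries.

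Within Δ*rco-3*, 0.05% glucose was compared with no carbon source, a comparison that uses no WT library. A gene was called when the p-value of limma, adjusted by the Benjamini-Hochberg method over all 7981 genes, was below 0.001, the log2 fold change was at least 1 in size and the mean was above 20 FPKM in one of the groups. Of the 110 members, 19 rose and 7 fell, while 8.09% of all genes tested rose and 9.84% fell. The largest rises were in NCU01546, NCU07352, *chit-1*, *cat-3* and NCU05557. NCU01546 had 297 and 311 FPKM in Δ*rco-3* at 0.05% glucose against 40.6 and 43.3 without carbon source, a log2 fold change of 2.83 ± 0.04 (SE, adjusted p = 2.04e-22). *chit-1* had 34.0 and 38.5 FPKM against 5.03 and 5.60 (2.56 ± 0.07, adjusted p = 1.29e-17), and *cat-3* had 123 and 131 FPKM against 24.03 and 25.02 (2.33 ± 0.05, adjusted p = 1.79e-19). Rises of 1.17 to 2.63 were also called in NCU07352, NCU05557, NCU06402, *ena-1*, NCU08390, NCU02798, NCU06235 and *tob55*. The 5 largest falls were in NCU03684, *ncw-5*, NCU07853, *stk-39* and NCU06305, with log2 fold changes of -2.75, -2.36, -1.60, -1.27 and -1.16. NCU03684 had 28.4 and 25.9 FPKM at 0.05% glucose against 186 and 189 without carbon source, and *ncw-5* had 42.2 and 42.9 FPKM against 226 and 219. The groups did not overlap for any of these genes, which the thresholds of a call nearly force. The call of NCU06305 was lost with median-ratio scaling, where its log2 fold change was -0.94. The median of all genes in this comparison was -0.23 and that of the members 0.19, and with median-ratio scaling 25 members rose and 4 fell. With a pseudocount of 5, 18 rose and 4 fell.

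Between the concentrations of glucose, almost no member was called in Δ*rco-3*. Limma called none of them between 0.05% and 0.5% glucose, where 56 members had an unadjusted p below 0.05 and 0.0501% of all genes tested were called. Between 0.05% and 2% glucose it called NCU02798 alone among the members, with 1.05% of all genes called. NCU02798 had 62.2 and 58.9 FPKM at 0.05% glucose against 29.5 and 29.9 at 2%, a log2 fold change of 1.00 that lay at the threshold and was not called without replicate 1, with median-ratio scaling or with a pseudocount of 5. In the WT, by the rule, all 110 members were more than 2-fold higher at 0.05% glucose than at either of these concentrations.

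Within Δ*col-26*, the same comparison of 0.05% glucose with no carbon source went mostly downwards. Of the 110 members, 10 rose and 34 fell, while 10.6% of all genes tested rose and 11.1% fell. The largest fall was in NCU07853, with 307 and 308 FPKM at 0.05% glucose against 5978 and 5968 without carbon source, a log2 fold change of -4.27 ± 0.03 (SE, adjusted p = 2.42e-25). It was followed by NCU07143, NCU03684, NCU01873 and NCU04266, at -3.46, -3.40, -3.18 and -3.12. NCU04266 lies next to *inv* on chromosome V and had 43.0 and 42.8 FPKM at 0.05% glucose against 378 and 383 without carbon source. Of the members with a symbol, *ccg-9* fell by 2.53, *ncw-5* by 2.42 and *aod-1* by 1.74 on the log2 scale, and *aod-1* had 105.3 and 109 FPKM at 0.05% glucose against 368 and 353 without carbon source. The largest rises were in *chit-1*, *cat-3*, NCU08390, NCU06235 and NCU07696, at 3.18, 2.71, 2.22, 1.95 and 1.72. *chit-1* had 25.4 and 26.1 FPKM at 0.05% glucose against 2.15 and 1.76, and *cat-3* had 152 and 154 FPKM against 22.8 and 22.4. Among the other named members, rises were called in *ena-1* and NCU06001 and falls in NCU04591, NCU07108, NCU07082, NCU06940, NCU06305, NCU07352 and NCU10051.

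Between the concentrations of glucose, few members were called in Δ*col-26*. Against 0.5% glucose NCU04266 was called, at 43.0 and 42.8 FPKM against 87.1 and 87.7 (log2 fold change -1.01), and 0.238% of all genes tested were called in either direction. With a pseudocount of 5 this call was lost. Against 2% glucose 9 members were called and all of them were lower at 0.05% glucose, with 0.952% of all genes called. Of all genes, too, more were lower than higher, at 58 and 18. The 5 largest of these were NCU07108, NCU04266, NCU07318, NCU06940 and NCU07082, at -2.08, -1.76, -1.76, -1.53 and -1.42. NCU07318, among the sharpest peaks of the WT, had 67.6 and 67.4 FPKM in Δ*col-26* at 0.05% glucose against 229 and 233 at 2%. *aod-1* had 105.3 and 109 FPKM against 219 and 217, a log2 fold change of -1.02 at the threshold. For these members the order of the media was thus opposite to that of the WT.

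**Figure D4:**
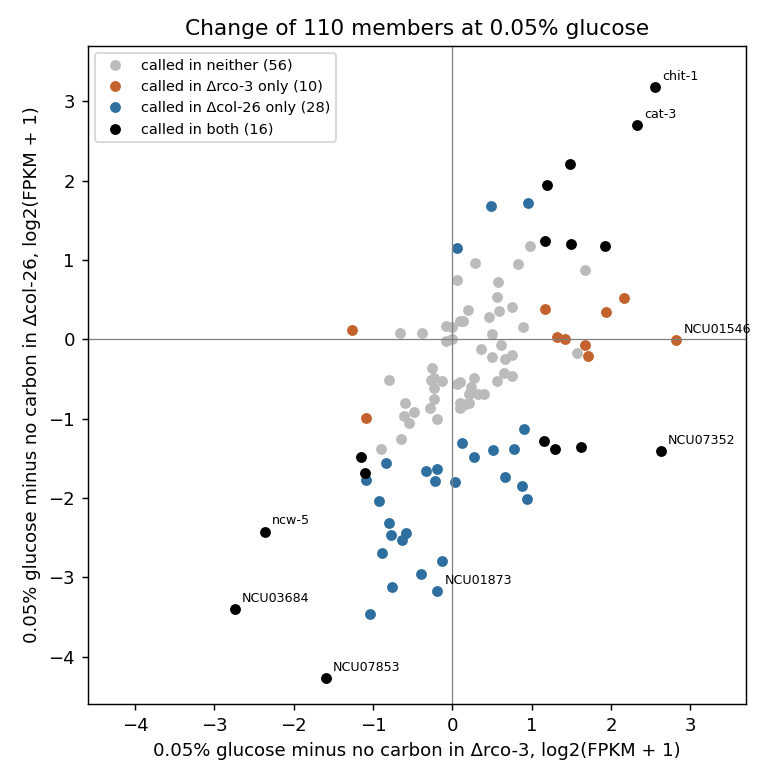
Log2(FPKM + 1) at 0.05% glucose minus no carbon source in Δrco-3 (horizontal axis) and Δcol-26 (vertical axis) for each of the 110 members, coloured by the strain in which the change was called. The change was called in both strains for 16 members, in Δrco-3 alone for 10, in Δcol-26 alone for 28 and in neither for 56; chit-1 and cat-3 lie at the upper right and NCU07352 at the lower right.

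The changes at 0.05% glucose against no carbon source were called in both deletion strains for 16 members, or 14.5% of them, against 14.7% of all genes tested. Of these, 7 rose in both and 5 fell in both, which is 6.36% and 4.55% of the members against 7.1% and 7.43% of all genes. The other 4 rose in Δ*rco-3* and fell in Δ*col-26*, which is 3.64% of the members against 0.138% of all genes, or 11 genes in the whole table. NCU07352 was the most divided, with 265 and 260.0 FPKM at 0.05% glucose against 41.2 and 42.2 without carbon source in Δ*rco-3* (log2 fold change 2.63), but 365 and 372 FPKM against 973 and 983 in Δ*col-26* (-1.40). The levels of the strains were thus closer with glucose than without it. A test of the difference between the strains in this change, which was chosen after the data were seen, called 44 members, of which 41 had the higher change in Δ*rco-3* while 3 had it in Δ*col-26*, and 3.91% and 3.33% of all genes tested were called in these directions. Members whose second-highest WT medium was 0.5% glucose rose in 14 cases and fell in 2 of 58 in Δ*rco-3*, and rose in 5 and fell in 15 in Δ*col-26*. Members whose second-highest WT medium was no carbon source rose in 0 and fell in 5 of 41 in Δ*rco-3*, and rose in 1 and fell in 17 in Δ*col-26*. Of the 11 members whose second-highest WT medium was 2% glucose, 5 rose and 0 fell in Δ*rco-3*, and 4 rose and 2 fell in Δ*col-26*. These counts compare with the shares over all genes given above for each strain, and the classes themselves were not tested against each other. The shares over all genes include genes too low for the 20 FPKM limit of a call, which every member passed in the WT. Without that limit, calls in Δ*rco-3* went from 1431 to 2282 over all genes and from 26 to 30 among the members. In Δ*col-26* they went from 1733 to 2914 and from 44 to 48. The shares of the members and of all genes are therefore not those of like genes.

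The deletion strains were then compared with each other in each medium. Without carbon source 58 of the 110 members were lower in Δ*rco-3* than in Δ*col-26* and 1 was higher, while 2.84% of all genes tested were lower and 2.47% higher. At 0.05, 0.5 and 2% glucose 18, 21 and 35 members were lower in Δ*rco-3*, while 0.739%, 0.927% and 1.73% of all genes tested were lower. Limma called 0 members higher in these media, and 53, 27 and 48 of all 7981 genes. So small a share of all genes leaves a count of 0 members unremarkable. At an unadjusted p of limma below 0.05, 35, 27 and 21 members were higher. The median difference of the members was -1.12, -0.21, -0.37 and -0.78 in the media from no carbon source to 2% glucose, against 0.36, 0.23, 0.20 and 0.16 for all genes tested. Median-ratio scaling took the median of all genes to near 0, and 65, 27, 28 and 45 members were then lower in Δ*rco-3* and none higher. In at least 1 medium 62 members were lower in Δ*rco-3*, in all 3 media with glucose 17, and in all 4 media 14, which is 56.4%, 15.5% and 12.7% of the members against 3.85%, 0.551% and 0.351% of all genes tested. Among the 14 were *aod-1*, *stk-39*, *rpn-4*, NCU16673, NCU06815, NCU06940 and NCU03684.

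NCU16673, the second-highest member by level, showed the largest difference without carbon source. It had 122 and 119 FPKM in Δ*rco-3* against 3262 and 3539 FPKM in Δ*col-26* (log2 fold change -4.81 ± 0.05, SE, adjusted p = 3.41e-23), and at 0.05% glucose 182 and 173 FPKM against 2451 and 2277 FPKM (-3.73). NCU07352 and NCU06940 followed without carbon source, at -4.52 and -4.51. NCU06815 had 34.4 and 35.5 FPKM in Δ*rco-3* against 547 and 540 FPKM in Δ*col-26* at 0.05% glucose (-3.92 ± 0.03, adjusted p = 3.16e-25), and its difference was -3.95, -4.05 and -4.65 without carbon source and at 0.5% and 2% glucose. In the WT its values were 311 and 312 FPKM at 0.05% glucose, so Δ*col-26* was above and Δ*rco-3* below the WT. *stk-39*, a protein kinase gene by its symbol, had 21.6 and 21.4 FPKM in Δ*rco-3* against 147 and 149 FPKM in Δ*col-26* at 0.05% glucose (-2.73), and at 0.5% glucose 18.4 and 19.6 FPKM against 138 and 134 (-2.78). *aod-1* had 32.9 and 29.8 FPKM in Δ*rco-3* against 368 and 353 FPKM in Δ*col-26* without carbon source (-3.48). *inv* was lower in Δ*rco-3* without carbon source, with 379 and 398 FPKM against 1330.2 and 1284 FPKM (-1.75), and no call was made for it in the media with glucose. *fi* was lower in the 3 media with glucose, by 1.61 at 0.05%, and *rpn-4* in all 4 media, by 1.23 at 0.05%. NCU06001 alone was higher in Δ*rco-3*, with 79.0 and 77.0 FPKM against 29.9 and 34.5 without carbon source (1.25), a call that was lost with median-ratio scaling (0.88).

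**Figure D5:**
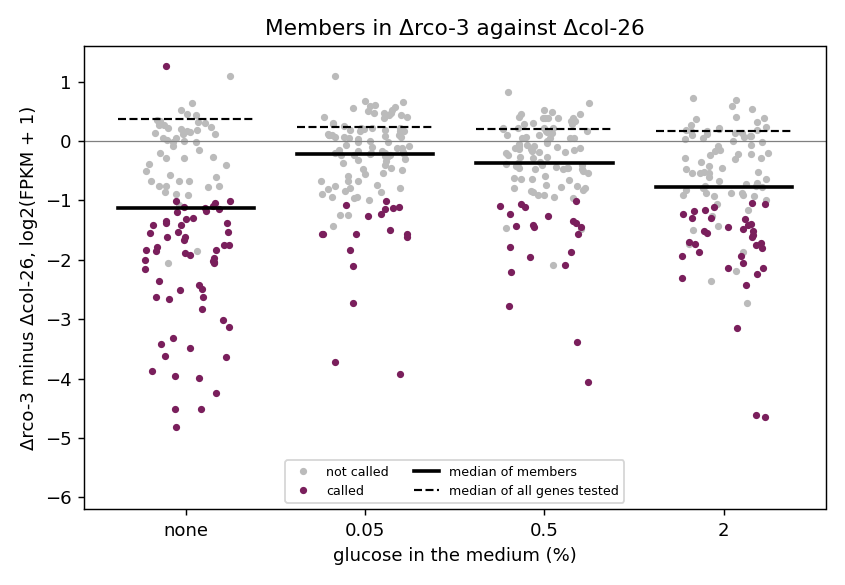
Δrco-3 minus Δcol-26 in log2(FPKM + 1) for each of the 110 members (points) by glucose in the medium, with called members in purple, the median of the members as a solid bar and the median of all genes tested as a dashed bar. The members' medians are -1.12, -0.21, -0.37 and -0.78, below the all-gene medians of 0.36, 0.23, 0.20 and 0.16; the 1 point called above 0 is NCU06001 without carbon source.

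Some members are neighbours on the chromosomes. There were 7 pairs of members with no other measured gene between them, 1 of which overlaps (NCU09085 and NCU16318 on chromosome I). *inv* (chromosome V, 5424497 to 5426871) is followed by NCU04266 (5429595 to 5430486), and NCU05563 (chromosome VI, 1509095 to 1511350) by *cmt* (1513376 to 1514037), with NCU05557 further on at 1523630 to 1526819. The levels of these neighbours in the deletion strains were far apart. In Δ*rco-3* at 0.05% glucose NCU05563 had 1.74 and 2.30 FPKM, *cmt* 2579 and 2363 FPKM and NCU05557 475 and 452 FPKM. In all, 37 members overlap another locus, among them *inv*, *cmt*, *emp-3*, *chit-1* and *tob55*, and the part of their fragments that belongs to the other locus is not known.

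Genes of related function, matched by symbol, are set beside the members here, with 1.13% of all loci being members. Of the 4 sugar transporter genes that could be matched by symbol, *hgt-1*, *cdt-1*, *cdt-2* and *rco-3*, 0 were members, and in 0.05% glucose against no carbon source 1 fell in Δ*rco-3* and 2 fell in Δ*col-26*. The other listed transporter names, such as *glt-1*, *hgt-2* and *xyt-1*, could not be paired with a locus. They may be among the members without a symbol, so this count does not show that no sugar transporter gene is a member. Of 4 genes for the hydrolysis of starch, sucrose and trehalose, *inv* was the only member, and 2 fell in each deletion strain in this comparison. Of 7 genes of the Embden-Meyerhof pathway, *fba* and *emp-3* were members, and *gpd-1*, *pgk* and *emp-7* were also highest at 0.05% glucose in the WT but with margins of 0.57, 0.39 and 0.11. By comparison, 11.56% of all genes tested were highest in this WT group. Of the 7 genes, 1 rose and 1 fell in each deletion strain, none of them a member. *cat-3* was the member among 4 catalase genes, of which 1 rose and 2 fell in each deletion strain, *aod-1* among 3 alternative oxidase genes and *pkac-2* among the 2 genes of protein kinase A catalytic subunits. *col-26* itself came close to the rule, with a WT mean of 39.4 FPKM at 0.05% glucose against 21.1, 17.3 and 17.4 FPKM in the other media from no carbon source up, and a margin of 0.87.

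Markers of conidia and aerial hyphae, the other cell types such cultures can form, differed between the groups. The summed FPKM of 6 markers (*con-6*, *con-8*, *con-10*, *con-13*, *eas* and *fl*) without carbon source was 4633 to 4809 for Δ*rco-3* mycelia and 4833 to 5054 in Δ*col-26*, against 357 to 366 in the WT. At 0.05% glucose it was 892 to 912 for Δ*rco-3* mycelia and 459 to 485 in Δ*col-26*, against 31.4 to 33.9 in the WT, where *con-13* was listed at 0. Most of each of these sums came from *eas*. Its mean without carbon source was 3563 FPKM for Δ*rco-3* mycelia, 3286 FPKM for Δ*col-26* mycelia and 251 FPKM for the WT. The sums hide that *fl* went the other way for starved Δ*col-26* mycelia, at a mean of 3.04 FPKM against 4.70 for the WT. For starved Δ*rco-3* mycelia the mean of *fl* was 10.12 FPKM. Of the 6 markers, 4 fell in each deletion strain at 0.05% glucose against no carbon source, and none was a member. Between the deletion strains without carbon source, limma called 0 of the 6 markers by all the thresholds, but 3 had an unadjusted p below 0.05 and differed in both directions: *fl* by a log2 difference of 1.46 (adjusted p = 3.08e-11, below the 20 FPKM limit), *con-8* by -0.82 (5.50e-08) and *con-10* by -0.41 (6.29e-07) in Δ*rco-3* minus Δ*col-26*. The part of these cells in the members' values was not tested.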

How the data were processed

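The deposited values are FPKM per gene and library. To make them, the authors used Trimmomatic 0.36 for trimming, aligned the reads to the OR74A genome or its transcripts (the paper names Bowtie2, the submitters' processing notes HISAT2 2.1.0) and counted with RSEM 1.2.8; DESeq, which the authors used, was not rerun, since FPKM are not counts. FPKM are relative to the mapped fragments of a library, so a rise in abundant genes lowers the rest, and the absolute depth is unknown. Samples were grouped by their labels.

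Differences were tested with limma 3.58.1 in R 4.3.3 (eBayes with a trend) on log2(FPKM + 1), a scale that understates the change of low genes. The fit covered 12 groups and the 7981 genes that reached a mean of 1 FPKM in some group, and had 12 residual and 6.31 prior degrees of freedom. P-values are two-sided and were adjusted by the Benjamini-Hochberg method over all genes; the thresholds of 0.001, a log2 fold change of 1 and 20 FPKM are those of the study's methods. All 110 members passed the filter, NCU07316 only through the WT. The script was tested on simulated data. Tables were made in Python 3.11.15 with pandas 2.3.3 and figures with matplotlib 3.10.9.

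The members, lists, tests and alternatives were chosen with earlier results of these data known. Named members are those with a symbol, the 10 largest margins, the 5 highest at 0.05% glucose in the WT, up to 5 called in each direction in each comparison within a deletion strain, up to 3 in each comparison between them, and those beside the thresholds. Symbols and coordinates come from the RefSeq annotation of assembly NC12, in which all 110 members were found; 4 of 11 listed transporter names were matched by symbol, and lists that needed gene descriptions, promoter motifs and protein sequences were not used here. The glycolytic, oxidase, catalase and kinase lists were added after the data were seen.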

Additional observations from a re-analysis of the deposited data

Results flagged for a closer look

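The change at 0.05% glucose against no carbon source was not the same in Δ*rco-3* as in Δ*col-26* for 21 of the named members, by an interaction contrast in the limma fit with the thresholds used throughout. The test was chosen after the data were seen, and each value is the log2 change in Δ*rco-3* minus that in Δ*col-26*. Several of these members, such as NCU07352 and NCU07853, were named for a large change in one of these comparisons. Their number is therefore no result about the members. Of all genes tested, 3.91% were called with the higher change in Δ*rco-3* and 3.33% with the higher change in Δ*col-26*. The difference was negative for *stk-39* at -1.39 and NCU06001 at -1.09. It was between 1 and 2 for NCU07318 at 1.07, NCU16673 at 1.09, NCU05627 at 1.22, NCU02798 at 1.41, NCU05557 at 1.64, NCU07082 at 1.80, *ccg-9* at 1.90 and NCU06402 at 1.92. It was between 2 and 2.6 for NCU10051 at 2.03, NCU04266 at 2.36, *aod-1* at 2.40, NCU07143 at 2.42 and NCU07108 at 2.57. It was above 2.6 for NCU04591 at 2.67, NCU07853 at 2.68, NCU01546 at 2.84, NCU06940 at 2.95, NCU01873 at 2.99 and NCU07352 at 4.03. NCU01546 had 297 and 311 FPKM in Δ*rco-3* at 0.05% glucose against 40.6 and 43.3 without carbon source, and 264 and 273 FPKM against 277 and 264 in Δ*col-26*, where the groups overlapped. NCU01873 had 2.02 and 2.08 FPKM against 2.28 and 2.69 in Δ*rco-3*, and 6.18 and 6.37 FPKM against 64.3 and 65.2 in Δ*col-26*.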

How the results depend on the processing

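Median-ratio scaling raised the number of genes that meet the membership rule to 202 from 110, and between the deletion strains it turned the calls over all genes to 46 higher and 337 lower in Δ*rco-3* without carbon source, from 197 and 227, to 19 and 115 from 53 and 59 at 0.05% glucose, to 9 and 116 from 27 and 74 at 0.5%, and to 32 and 193 from 48 and 138 at 2%, and within Δ*rco-3* at 0.05% glucose against no carbon source to 739 and 521 from 646 and 785. The call within Δ*rco-3* between 0.05% and 2% glucose, 1 member, became 0 with a pseudocount of 5, 0 with median-ratio scaling, 2 with no minimum FPKM, and 0 to 1 when a replicate was left out. A pseudocount of 5 took the call within Δ*col-26* between 0.05% and 0.5% glucose to 0. The total of members called in each of the other comparisons stayed within 1.5 times its value under every alternative, but 7 falls within Δ*rco-3* against no carbon source became 4 with a pseudocount of 5 and 4 with median-ratio scaling, and the 1 member higher in Δ*rco-3* than in Δ*col-26* without carbon source became 0 with that scaling and 2 with no minimum FPKM. Also within 1.5 times were the members highest at 0.05% glucose in Δ*rco-3* (25 to 35) and Δ*col-26* (7 to 12), and, apart from scaling, the number of members (94 to 113). The cause of these shifts was not tested. With no minimum FPKM, calls over all genes within Δ*rco-3* against no carbon source numbered 2282 in place of 1431, and within Δ*col-26* 2914 in place of 1733. The replicate number as a block changed no count of members (26 and 44 called against no carbon source within Δ*rco-3* and Δ*col-26*). Same-numbered libraries deviated together only weakly, with correlations of -0.10 to 0.25 between the groups compared. Whether they share more than a number cannot be told from these values. The fit of only the groups compared left out NCU07316, which is 0 in all those libraries. Of 107 calls of named members under 9 alternatives, 948 of 963 results kept the call, 15 lost it and 0 reversed, and the lost calls lay near the thresholds.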
